A study of Mus musculus with 36 samples.

Results

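The genes described here were 10 components of the major histocompatibility complex (MHC) class I pathway, measured by RNA sequencing in BV-2 cells, an immortalised murine microglial line. They were taken by symbol from the 19879 genes of the deposited tables: the heavy chains H2-K1 and H2-D1, the light chain B2m, the peptide transporter subunits Tap1 and Tap2, the loading protein Tapbp, the inducible proteasome subunits Psmb8, Psmb9 and Psmb10, and the transactivator Nlrc5. All 10 were found, and all 10 passed the filter on low values in each comparison below.

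The study compared 3 drugs in microglia activated with lipopolysaccharide (LPS), a component of the bacterial outer membrane that signals through Toll-like receptor 4. The 36 libraries formed 12 groups of 3, namely DMSO, ethanol (EtOH), LPS, LPS + DMF, LPS + MMF and LPS + CBD, each at 4 h and at 24 h. LPS was given at 600 ng/mL, dimethyl fumarate (DMF) and its metabolite monomethyl fumarate (MMF) at 30 µM from DMSO stocks, and cannabidiol (CBD) at 6 µM from an EtOH stock. The final vehicle concentration was 0.2% throughout, and serum was lowered to 0.1% before treatment in the LPS experiments. All libraries came from 1 wild-type line, and the labels do not say which vehicle accompanied LPS given alone. The study states that each experiment was repeated 3 times, so that p-values measured the spread between repeats within a single cell line. The labels number the groups with LPS 1 to 3 and the vehicles 4 to 6, and do not say whether these were separate series. An effect of LPS over a vehicle therefore cannot be told apart from a difference between such series. Library totals ran from 14110424 to 26676607 reads assigned to genes, and the median was 16.2 M reads.

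Class I molecules display short peptides from the cytosol on the cell surface, where cytotoxic T cells inspect them. The proteasome cuts cytosolic proteins into peptides, and under interferon its standard catalytic subunits Psmb5, Psmb6 and Psmb7 are exchanged for Psmb8, Psmb9 and Psmb10, respectively, to give the immunoproteasome. The Tap1–Tap2 transporter carries peptides into the endoplasmic reticulum, Tapbp (tapasin) bridges the transporter and the empty class I molecule, and the heavy chain travels to the surface with B2m (β2-microglobulin) and its peptide. Nlrc5 enters the nucleus and assembles with promoter-bound factors at class I genes. Microglia carry little class I at rest and more when activated.

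In these cells the products at the surface end of the pathway were far more abundant than its inducible machinery. In RPKM, reads scaled to exon length and library size, averaged over the 12 groups, B2m stood at 424, H2-K1 at 148 and H2-D1 at 86.3. The other members lay lower, with Psmb10 at 33.9, Tapbp at 27.7, Nlrc5 at 16.3, Psmb8 at 10.3, Tap1 at 8.70, Tap2 at 7.92 and Psmb9 at 5.86. These values rest on the length of all merged exons. With the length of the canonical transcript, B2m, H2-K1 and H2-D1 were again the highest 3 (822, 291 and 122), while Psmb9 stood at 16.4 and Tap2 was the lowest at 9.49, so the order of the low members depends on the length used. The fewest reads behind a value were 239, for Psmb9, and the most were 24012, for B2m. The remaining levels are normalised read counts on a common scale for the 36 libraries, which compare groups within a gene and not genes with each other.

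The abundant members varied least between groups. The highest group mean exceeded the lowest 1.47-fold for H2-K1, 1.51-fold for H2-D1, 1.56-fold for B2m, 1.58-fold for Psmb8, 1.70-fold for Psmb9, 1.82-fold for Tap2 and 1.91-fold for Tapbp. Psmb10 spanned 2.33-fold, Tap1 3.04-fold and Nlrc5 4.4-fold. Nlrc5, Tap1 and Tap2 were lowest on average in LPS + DMF at 4 h and highest in LPS + CBD at 24 h. When the groups were ranked by mean, the libraries of neighbouring groups overlapped in 104 of 110 neighbouring pairs. The exceptions were 3 pairs for Nlrc5, 2 for Psmb10 and 1 for Tap2. Neighbours in such a ranking lie close by construction, and no share over all genes stands beside this count, so it describes the ranking only. For Nlrc5, LPS + CBD at 24 h stood apart at the top, DMSO at 4 h stood below EtOH at 4 h, and LPS + DMF at 4 h stood apart at the bottom. The gap between DMSO and EtOH was from 1453 to 1456 normalised reads, and in the table of that pair alone their libraries overlapped.

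**Figure D1:**
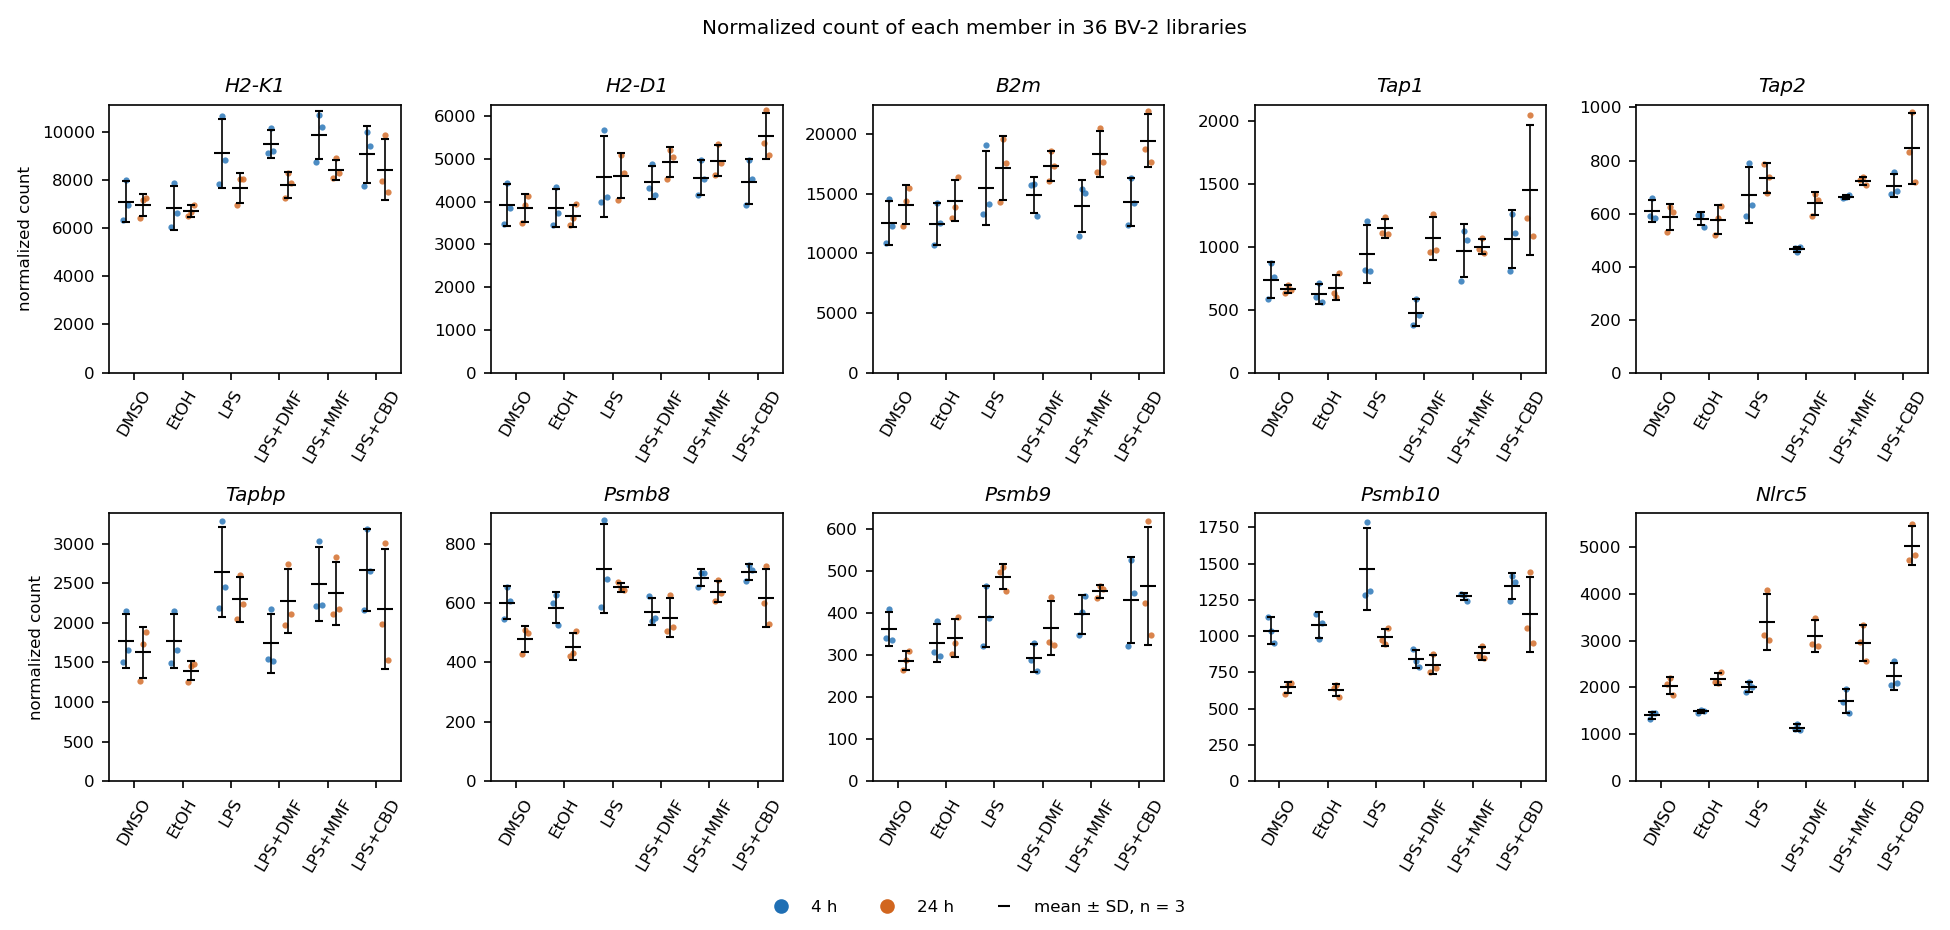
Normalised read count (common scale for 36 libraries, linear axes from 0) of each of the 10 genes by treatment, at 4 h (blue) and 24 h (orange), with points for single libraries and bars for the mean ± SD of 3. Nlrc5 was lowest in LPS + DMF at 4 h (1140 ± 73.9) and highest in LPS + CBD at 24 h (5017 ± 415), whereas the group means of H2-K1 lay between 6704 and 9863.

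The replicates carried a shared component in these genes. Replicate 2 was the highest of its group in 71 of 80 combinations of a member and a group that received LPS, including all 8 such groups for H2-K1, H2-D1, B2m, Tap1, Tapbp and Nlrc5. Among the vehicle groups, numbered 4 to 6, replicate 5 was highest in 23 of 40 combinations. A replicate block, which fits the repeat as a term, is therefore given beside the results it changed wherever same-numbered libraries deviated together. It is also given for the interactions of DMF and CBD with time, where they did so only in part.

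Of the 10 genes, 7 lie on chromosome 17, in or beside the mouse MHC, 2 on chromosome 8 (Psmb10 and Nlrc5) and 1 on chromosome 2 (B2m). Psmb9, Tap1, Psmb8 and Tap2 stand next to each other within 34870 bp of chromosome 17 (GRCm39). H2-K1 was deposited at chr17:34214991-34219321, H2-D1 at chr17:35481706-35486475, B2m at chr2:121978167-121983564, Tap1 at chr17:34406527-34416199 and Nlrc5 at chr8:95160984-95253900 in that build. Psmb9 and Tap1 are transcribed in opposite directions and their GENCODE exons share 743 bases, 19.6% of those of Psmb9 and 12.4% of those of Tap1. The strand setting of the read counting is not given in the sources used here, so reads of the overlap cannot be told apart. Long non-coding genes on the other strand cover 26.8% of the exon bases of H2-K1 (Gm53999), 24.2% of those of H2-D1 (5430410E06Rik), 25.6% of those of Tapbp (Gm19412) and 14.6% of those of Psmb8 (Gm20496). Zbtb22, on the strand of Tapbp, covers 20.9% of its exon bases. Of the stretches of 150 bases in the H2-D1 transcript, 1.78% also occur in H2-Q1, and none of the other 9 members shared such a stretch with another gene.

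The bases before the start sites of 4 members are shown because Nlrc5 is known to act at class I promoters through a conserved module that holds an X2 box and a Y box, next to a kappa B element. They were taken from RefSeq (GRCm38.p6, 250 bases before the annotated start, 5′ to 3′ on the strand of the gene), which held 8 of the 10 members. H2-K1 is at chr17:34000348-34000597 on the minus strand, and H2-D1 at chr17:35262844-35263093, B2m at chr2:122147437-122147686 and Tap1 at chr17:34187306-34187555 are on the plus strand. Capitals mark letters that match a searched motif on either strand: kappa B (GGGA, 4 free bases, then CC), a pair of interferon regulatory factor half-sites (GAAA, 2 free bases, then GAAA), the gamma-activated site (TTCNNNGAA), the Y box (CCAAT) and the X2 core (TGACG).
H2-K1: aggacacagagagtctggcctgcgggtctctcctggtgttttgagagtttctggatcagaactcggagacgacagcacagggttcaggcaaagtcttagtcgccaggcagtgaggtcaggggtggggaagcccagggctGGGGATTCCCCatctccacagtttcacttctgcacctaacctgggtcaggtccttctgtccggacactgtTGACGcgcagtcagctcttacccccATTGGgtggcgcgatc
H2-D1: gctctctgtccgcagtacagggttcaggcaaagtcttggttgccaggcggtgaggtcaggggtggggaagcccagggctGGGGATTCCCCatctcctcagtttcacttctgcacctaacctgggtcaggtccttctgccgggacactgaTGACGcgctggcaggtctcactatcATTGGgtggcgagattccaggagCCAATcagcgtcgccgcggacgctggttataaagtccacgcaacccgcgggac
B2m: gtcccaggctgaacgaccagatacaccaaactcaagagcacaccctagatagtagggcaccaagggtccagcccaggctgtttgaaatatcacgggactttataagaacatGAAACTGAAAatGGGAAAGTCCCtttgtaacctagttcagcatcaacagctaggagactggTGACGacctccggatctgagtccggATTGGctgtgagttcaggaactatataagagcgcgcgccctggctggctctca
Tap1: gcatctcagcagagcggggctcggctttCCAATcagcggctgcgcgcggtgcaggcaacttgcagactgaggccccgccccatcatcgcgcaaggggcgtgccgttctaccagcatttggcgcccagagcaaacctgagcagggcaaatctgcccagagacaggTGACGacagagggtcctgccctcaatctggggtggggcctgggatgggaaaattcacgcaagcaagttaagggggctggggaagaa

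Counted with the start site as 0, the kappa B letters began at position -111 in H2-K1, -171 in H2-D1 and -127 in B2m, where matches of both strands overlapped by all but 1 base. These were the 3 of 8 members with a match, against 17.34% of the 27018 windows in the RefSeq table. The X2 core was found in 5 of 8 members (17.87% of all windows) and the Y box in 6 of 8 (34.47%). In H2-K1, H2-D1 and B2m, the Y box began 25 bases after the first base of the X2 core, with 20 bases between them. This arrangement, looked up after the single matches had been seen, was present on either strand in 25 of all windows, or 0.093%. Tap1 held an X2 core at -86 and a Y box at -222 without that spacing, and its window shared 225 of its 250 bases with that of Psmb9. The RefSeq starts were not matched to the GENCODE models used for exon lengths and differ from them at least for this pair. In GENCODE the canonical start sites of Psmb9 and Tap1 lie 363 bp apart, and the exons of the genes overlap. The interferon regulatory factor pair was found in B2m alone among the 8 (3.04% of all windows) and the gamma-activated site in Psmb8 alone (7.18%). A match describes letters in this window and says nothing about whether a factor was bound. The search took these exact letters, so a window without a match can still hold a variant of the element.

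At 4 h, LPS raised Nlrc5 against both vehicles, and the other members lay above the vehicles by amounts that mostly did not pass the test. Nlrc5, the transactivator, stood at 1899, 2117 and 2011 in the LPS libraries, at 1323, 1453 and 1447 with DMSO and at 1456, 1521 and 1495 with EtOH. Every LPS library was above every vehicle library. The log2 fold change was 0.51 over DMSO (SE 0.0751, adjusted p = 0.0035 by limma with Benjamini-Hochberg adjustment over all genes tested) and 0.43 over EtOH (SE 0.0647, adjusted p = 0.00513). In bulk RNA, a change in expression per cell and a change in the share of cells that express a gene cannot be told apart.

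Psmb10, the inducible counterpart of Psmb7, was the other member called at 4 h, over DMSO alone. Its LPS libraries held 1284, 1788 and 1311 normalised reads, against 1130, 1036 and 951 with DMSO and 1156, 980 and 1093 with EtOH. The log2 fold change was 0.47 over DMSO (SE 0.131, limma adjusted p = 0.0449) and 0.43 over EtOH (SE 0.130, adjusted p = 0.0781). Thus 2 of 10 members were called over DMSO, where 14.1% of all genes tested were called and 7.70% were called higher, and 1 of 10 over EtOH, where the shares were 10.2% and 5.69%. All 10 log2 fold changes were positive in both comparisons, with medians of 0.31 and 0.36 over the members and of 0.00 over all genes. Both comparisons used the same LPS libraries.

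Among the members that missed the threshold at 4 h, Tapbp had the highest estimates. Its log2 fold change was 0.57 over DMSO (95% interval 0.18 to 0.96, limma adjusted p = 0.0601) and 0.58 over EtOH (0.18 to 0.97, adjusted p = 0.0744). Tap1 lay close to it over EtOH, at 0.57 (0.20 to 0.95, limma adjusted p = 0.0634). Over DMSO Tap1 was estimated at 0.34 (-0.09 to 0.76, adjusted p = 0.2655). H2-K1, a classical heavy chain, was estimated at 0.35 over DMSO (0.06 to 0.64) and 0.41 over EtOH (0.11 to 0.71). The call of Psmb10 over DMSO was lost without replicate 3 of LPS or without any one of the 3 DMSO libraries, whereas Nlrc5 held in every such fit. DESeq2, run on the recovered reads, called 4 members over DMSO and 5 over EtOH. The shares of all genes that DESeq2 called are not given here, so these counts cannot be set against a background.

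After 24 h, LPS had raised most of the peptide-supplying members, by about 1.26- to 1.74-fold over DMSO. Against DMSO, 7 of 10 members were called, all higher, and against EtOH 8 of 10, all higher. Among all genes tested, 22.7% were called over DMSO (12.1% higher) and 20.5% over EtOH (10.8% higher). The median log2 fold change of the members was 0.49 over DMSO and 0.54 over EtOH, beside 0.01 over all genes in both.

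Tap1, the transporter subunit, had the largest estimate in both comparisons at 24 h. Its LPS libraries stood at 1104, 1233 and 1097, against 634, 698 and 658 with DMSO and 629, 602 and 787 with EtOH, with no overlap. The log2 fold change was 0.80 over DMSO (SE 0.084, limma adjusted p = 6.94e-05) and 0.78 over EtOH (SE 0.109, adjusted p = 0.000414). Tap2, its partner, rose by 0.34 and 0.36, and lost the call in 4 of the 6 fits without a library in each comparison (adjusted p up to 0.0969). Tapbp rose by 0.52 and 0.72, with the call over DMSO lost without replicate 3 of LPS (adjusted p = 0.0636).

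All 3 inducible proteasome subunits rose at 24 h against both vehicles. Psmb9 libraries held 497, 510 and 452 normalised reads with LPS, 264, 287 and 310 with DMSO and 302, 330 and 390 with EtOH, without overlap. The log2 fold change of Psmb9 was 0.77 over DMSO (SE 0.103, limma adjusted p = 0.000337) and 0.53 over EtOH (SE 0.117, adjusted p = 0.00782). Psmb10 rose by 0.63 and 0.67, and Psmb8 by 0.47 and 0.54. Nlrc5 rose by 0.74 over DMSO and 0.64 over EtOH, from 1835–2208 and 2086–2336 in the vehicles to 3010–4083 with LPS.

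The class I chains themselves had lower estimates at 24 h. H2-D1 rose by 0.33 over EtOH (SE 0.0944, limma adjusted p = 0.0274, lost in 4 of 6 fits without a library) and was estimated at 0.27 over DMSO (95% interval 0.05 to 0.48, adjusted p = 0.0693). H2-K1 was estimated at 0.16 over DMSO (-0.02 to 0.34) and 0.20 over EtOH (0.03 to 0.38), and B2m at 0.29 (0.03 to 0.56) and 0.25 (-0.02 to 0.53). None of these 4 passed the threshold, with adjusted p from 0.103 to 0.202. The DMSO and EtOH controls themselves differed in no member at either time by limma, with 0 of 10 also at an unadjusted p under 0.05 and 0 by edgeR and DESeq2, and with 0.0% of all genes called at 4 h and 0.00854% at 24 h.

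**Figure D2:**
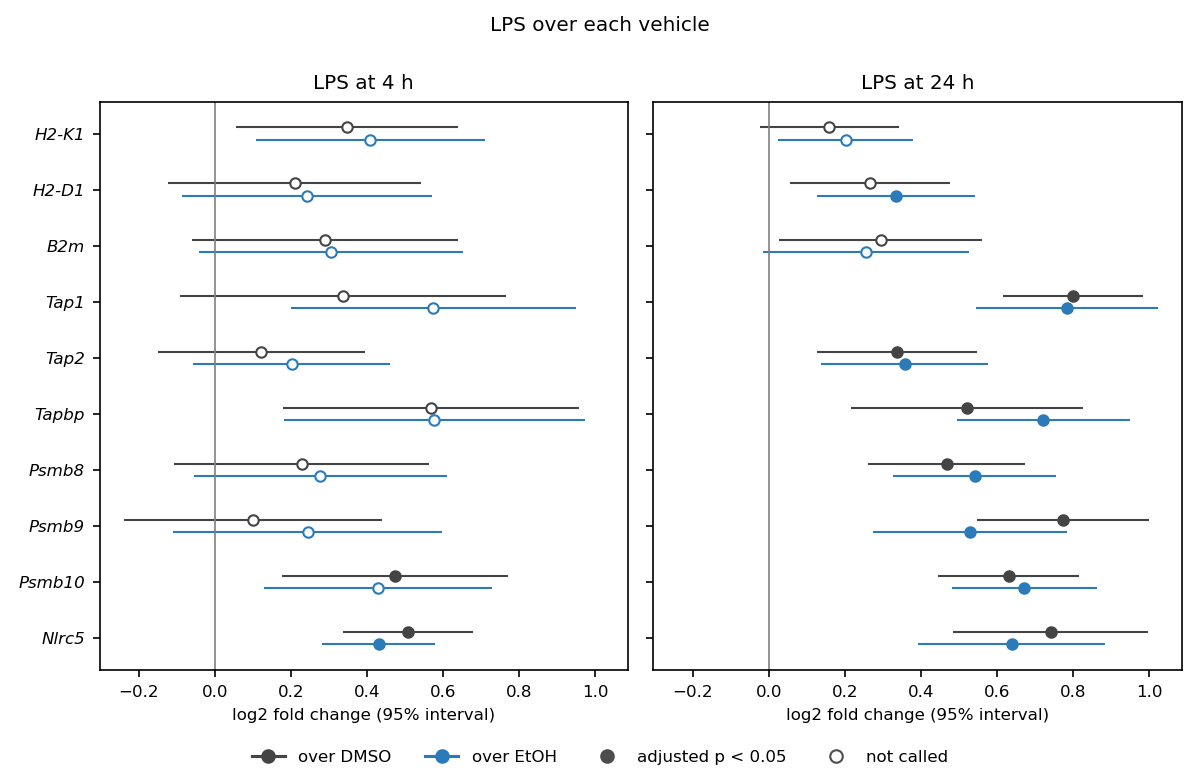
Log2 fold change (x axis) of LPS over DMSO (grey) and over EtOH (blue) for each gene (y axis) at 4 h and 24 h, with 95% limma intervals and filled points for adjusted p below 0.05. All 40 estimates lie right of 0, from 0.10 to 0.58 at 4 h and from 0.16 to 0.80 at 24 h, and filled points number 3 at 4 h and 15 at 24 h.

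DMF given with LPS for 4 h lowered the transporter subunits, Psmb10 and Nlrc5 against LPS alone, while none of the class I chains was called. Called lower were 4 of 10 members and none was called higher. Over all genes tested, 11.1% were called, 6.51% lower and 4.55% higher. The median log2 fold change of the members was -0.46, beside 0.01 over all genes.

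Tap1 libraries held 381, 588 and 460 normalised reads with LPS + DMF and 811, 1203 and 806 with LPS alone, so the highest treated library lay below the lowest LPS library. The log2 fold change of Tap1 was -0.98, or a ratio of 0.508 (SE 0.197, limma adjusted p = 0.0132). The call was lost without replicate 3 of LPS + DMF at 4 h, where the adjusted p was 0.0587, and the count of called members was then 2. Nlrc5 held 1104, 1225 and 1091 with LPS + DMF against 1899, 2117 and 2011, again apart, and its log2 fold change was -0.82 (SE 0.0905, adjusted p = 0.000739). All 3 of these libraries also lay below the 6 vehicle libraries of that time.

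Psmb10 libraries stood at 914, 827 and 791 with LPS + DMF and at 1284, 1788 and 1311 with LPS, and the log2 fold change was -0.78 (SE 0.135, limma adjusted p = 0.00633). The calls of Nlrc5 and Psmb10 held when any single library was left out. Tap2 stood at 468, 454 and 473 against 590, 789 and 633, with -0.52 on the log2 scale (SE 0.122, adjusted p = 0.0251), and lost its call in 5 of the 6 fits that left out a library, with adjusted p up to 0.0902. The remaining machinery had negative estimates that did not pass the test: Tapbp -0.60 (95% interval -1.01 to -0.20, adjusted p = 0.0646), Psmb9 -0.41 (-0.76 to -0.05) and Psmb8 -0.31 (-0.64 to 0.02). With the replicate block, Tapbp was also called (adjusted p = 0.00215), beside 15.1% of all genes.

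The estimates for the chains that form the class I molecule lay near 0. H2-K1 held 9106, 10166 and 9202 normalised reads with LPS + DMF and 7826, 10647 and 8805 with LPS, a log2 fold change of 0.07 with a 95% interval of -0.20 to 0.34. The estimate for H2-D1 was -0.03 (-0.35 to 0.28) and for B2m -0.05 (-0.37 to 0.28). The limma adjusted p was 0.786, 0.920 and 0.877, respectively, and differences within these intervals could not be told from 0 with 3 libraries a group.

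MMF at the same dose and time gave no called member. Of the 10 members, 0 were called by limma, 0 had an unadjusted p under 0.05, and edgeR and DESeq2 also called 0, beside 0.122% of all genes. The estimates ran from -0.24 (Nlrc5, 95% interval -0.49 to 0.01) to 0.13 (H2-K1), with 5 positive and 5 negative. Tap1 was 729, 1125 and 1050 with LPS + MMF, within the range of LPS alone apart from its lowest library, and its log2 fold change was 0.05 (-0.38 to 0.48).

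DMF and MMF differ by 1 methyl ester on fumaric acid and were compared directly as 1 pair at 2 times, in 10 members each, with p-values adjusted over all genes tested. At 4 h, 4 of 10 members were lower with DMF than with MMF, and over all genes 8.34% were called, 4.97% lower. Tap1 differed by -1.03 (SE 0.191, limma adjusted p = 0.0108), a ratio of 0.491 with libraries of 381–588 and 729–1125. Psmb10 differed by -0.60 (SE 0.0926, adjusted p = 0.00485), Nlrc5 by -0.58 (SE 0.12, adjusted p = 0.0166) and Tap2 by -0.52 (SE 0.093, adjusted p = 0.00918). Without replicate 3 of LPS + DMF, 2 members were called, Tap2 and Psmb10, whose calls held in each of the 6 fits without a library. The libraries did not overlap in 7 members, namely these 4, Tapbp, Psmb8 and Psmb9, nor in 29.6% of all genes. Tapbp was estimated at -0.53 (95% interval -0.89 to -0.16), Psmb9 at -0.44 (-0.74 to -0.14) and Psmb8 at -0.27 (-0.50 to -0.05), with adjusted p of 0.082, 0.0758 and 0.131. For the chains, the intervals were -0.28 to 0.16 in H2-K1, -0.27 to 0.18 in H2-D1 and -0.20 to 0.38 in B2m.

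At 24 h the pair was not told apart in any member without the block. Of 10 members, 0 were called by limma, 3 had an unadjusted p under 0.05, and edgeR and DESeq2 called 0, beside 21.5% of all genes called. With the replicate block, in which same-numbered libraries were matched, Psmb9 (-0.32, adjusted p = 0.0136), Psmb8 (-0.22, adjusted p = 0.025) and Tap2 (-0.19, adjusted p = 0.0408) were lower with DMF, and 39.8% of all genes were called. Tap1 was estimated at 0.08 (95% interval -0.16 to 0.32) and Nlrc5 at 0.07 (-0.16 to 0.30) at 24 h. A difference of the size of Tap1 at 4 h thus lay outside the interval at 24 h.

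Against LPS alone at 24 h, Psmb9 and Psmb10 were called lower with DMF, and both calls depended on single libraries. Psmb9 held 332, 439 and 323 normalised reads with LPS + DMF and 497, 510 and 452 with LPS, without overlap, and its log2 fold change was -0.43 (SE 0.124, limma adjusted p = 0.0298). Psmb10 held 755, 878 and 780 against 973, 947 and 1059, or -0.31 on the log2 scale (SE 0.0864, adjusted p = 0.027). These were 2 of 10 members called, both lower, beside 25.1% of all genes (13.2% lower). The share of members called thus lay below that of all genes, though the share called lower did not. The replicate block added Psmb8 (-0.25, adjusted p = 0.0388), with 39.1% of all genes called. No member was called without replicate 1 or 3 of LPS at 24 h or without replicate 1 or 3 of LPS + DMF at 24 h, and 1 was called without replicate 2 of LPS at 24 h. Tap1 (-0.12, 95% interval -0.35 to 0.12) and Nlrc5 (-0.13, -0.39 to 0.13) had libraries that overlapped those of LPS alone, and the heavy chains and B2m were estimated between 0.02 and 0.10.

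MMF at 24 h gave 0 called members against LPS alone by limma, 0 by edgeR and 0 by DESeq2, with 1 at an unadjusted p under 0.05 and 0.0% of all genes called. That gene was Tap1, with libraries of 978, 1072 and 952 below the LPS libraries of 1104, 1233 and 1097, at -0.19 (95% interval -0.37 to -0.02). In the fit with the replicate block, Nlrc5 was called lower (-0.20, adjusted p = 0.0477), at an unblocked adjusted p of 0.9995, and 1.78% of all genes were called.

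CBD was given at another dose than the fumarates, so its values stand beside theirs without a comparison between the drugs. At 4 h, 0 of 10 members were called against LPS alone by limma, 0 had an unadjusted p under 0.05, and edgeR and DESeq2 called 0, beside 0.00875% of all genes. Nlrc5 was estimated at 0.16 (95% interval -0.06 to 0.38) and Tap1 at 0.18 (-0.26 to 0.63).

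At 24 h CBD raised Nlrc5 and left the others without a call. Its libraries held 4727, 5493 and 4833 normalised reads with LPS + CBD and 3108, 4083 and 3010 with LPS, all treated libraries being higher. The log2 fold change was 0.58, or 1.49-fold (SE 0.118, limma adjusted p = 0.00318). That was 1 of 10 members, all in the higher direction, whereas 48.7% of all genes were called (23.9% higher), so the share of members called lay below the background. The count was 2 without replicate 2 of LPS or replicate 3 of LPS + CBD at 24 h and 3 without replicate 2 of LPS + CBD. H2-D1 held 5371, 6133 and 5097 against 4043, 5085 and 4678, an estimate of 0.27 (0.04 to 0.50, adjusted p = 0.0508), and was called with the replicate block (adjusted p = 0.00786, with 56.7% of all genes called). Tap1 was scattered, at 1224, 2043 and 1082, with an estimate of 0.29 (-0.15 to 0.73). Psmb9 was estimated at -0.10 (-0.51 to 0.30) and Tapbp at -0.12 (-0.59 to 0.34).

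**Figure D3:**
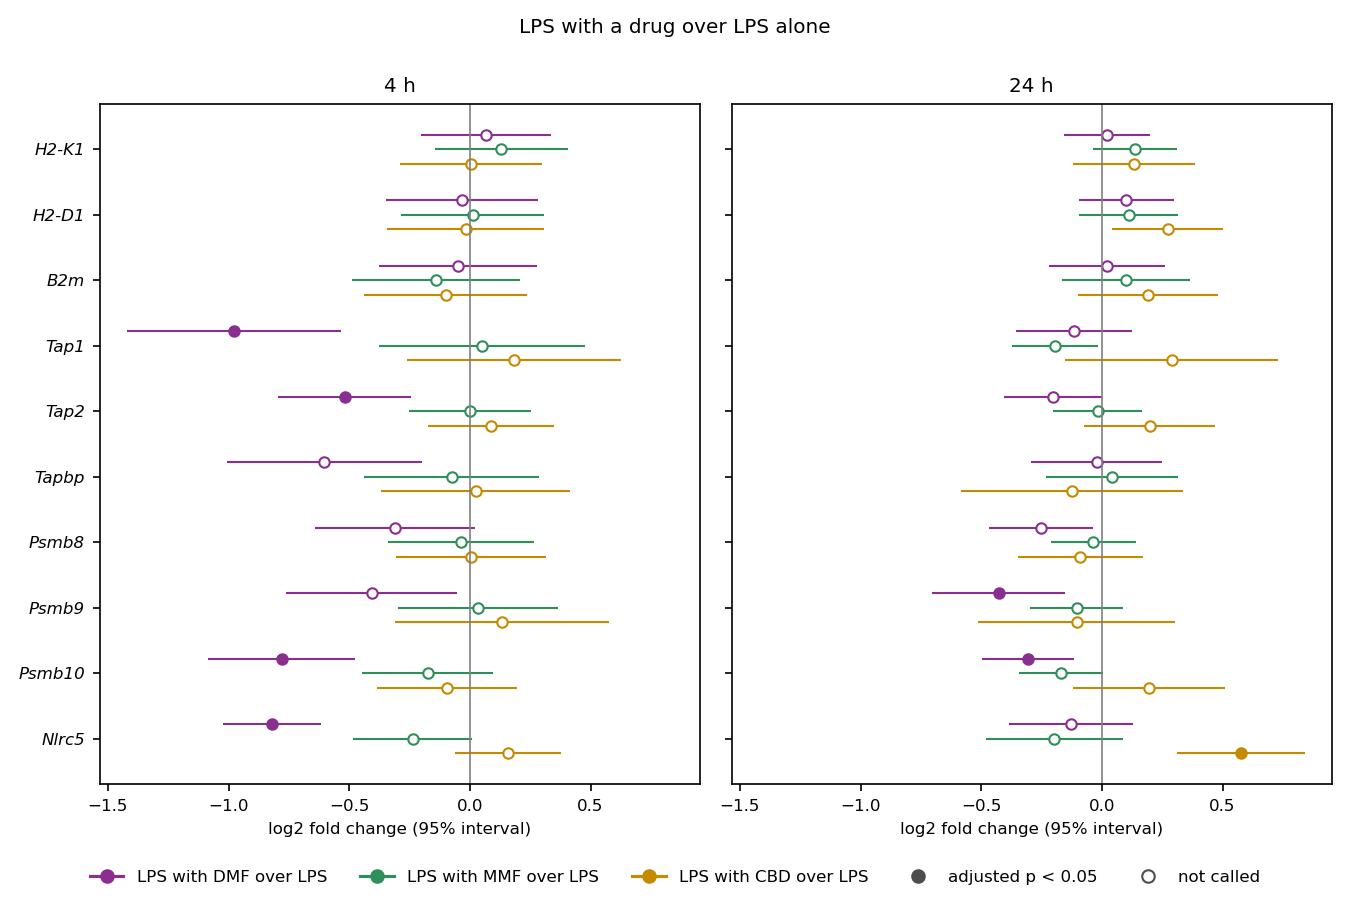
Log2 fold change (x axis) of LPS + DMF (purple), LPS + MMF (green) and LPS + CBD (ochre) over LPS alone for each gene (y axis) at 4 h and 24 h, with 95% limma intervals and filled points for adjusted p below 0.05. DMF at 4 h has 4 filled points left of 0, from -0.98 (Tap1) to -0.52 (Tap2), DMF at 24 h has 2, MMF has none, and CBD has 1, Nlrc5 at 24 h.

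The treated groups were also set against their own vehicle without LPS, libraries that the LPS comparisons above share. At 4 h, LPS + DMF was lower than DMSO in Tap1 (-0.64, limma adjusted p = 0.0319), Tap2 (-0.40), Psmb10 (-0.31) and Nlrc5 (-0.31), and higher in H2-K1 (0.42, adjusted p = 0.0157). These 5 called members stood beside 23.5% of all genes (12.1% lower, 11.4% higher). The Tap1 libraries overlapped, with 588 as the highest with LPS + DMF and 586 as the lowest with DMSO. The count of 5 fell to 0 without replicate 6, to 1 without replicate 5 and to 3 without replicate 4 of DMSO at 4 h, and to 2 without replicate 3 of LPS + DMF. LPS + MMF was higher than DMSO in H2-K1 (0.48) and Psmb10 (0.30), 2 members beside 8.22% of all genes (5.12% higher), and both calls were lost without replicate 6 of DMSO at 4 h or without replicate 2 or 3 of LPS + MMF. LPS + CBD was higher than EtOH in Tap1 (0.76), Tapbp (0.60), Nlrc5 (0.59), Psmb10 (0.33) and Tap2 (0.29), 5 members beside 13.6% of all genes (7.52% higher). Nlrc5 alone kept its call in each of the 6 fits without a library, and the count was 1 without replicate 6 of EtOH or replicate 3 of LPS + CBD and 2 without replicate 4 of EtOH or replicate 2 of LPS + CBD.

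At 24 h every estimate against the vehicle was positive in all 3 drug groups. LPS + DMF was higher than DMSO in 7 of 10 members (40.2% of all genes called, 20% higher), with Tap1 at 0.69 and Nlrc5 at 0.62. LPS + MMF was higher in 10 of 10 (22.4% of all genes called, 12.5% higher), from 0.30 in H2-K1 to 0.67 in Psmb9. LPS + CBD was higher than EtOH in 9 of 10 (50.5% of all genes called, 25.5% higher), with Nlrc5 at 1.21 (SE 0.0858), Tap1 at 1.07 and Psmb10 at 0.86. The DMF count was 4 without replicate 2 of LPS + DMF at 24 h. Psmb9 was the member without a call with LPS + CBD, at 0.42 (95% interval -0.02 to 0.85).

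Several members differed between 4 h and 24 h without LPS as well, in comparisons where the time separated a large share of all genes. Nlrc5 was higher at 24 h in all 6 treatments, by 0.51 with DMSO, 0.53 with EtOH, 0.74 with LPS, 1.43 with LPS + DMF, 0.79 with LPS + MMF and 1.16 with LPS + CBD. Psmb10 moved the other way and fell by 0.70 on the log2 scale with DMSO, by 0.80 with EtOH, by 0.55 with LPS and by 0.54 with LPS + MMF. With LPS + DMF its estimate was -0.08 (95% interval -0.30 to 0.15), and with LPS + CBD -0.26 (-0.56 to 0.05). Psmb8 was lower at 24 h with DMSO (-0.35) and EtOH (-0.39).

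The members called between the times numbered 4 with DMSO (51.6% of all genes), 4 with EtOH (58.6%), 2 with LPS (48.9%), 4 with LPS + DMF (58.8%), 3 with LPS + MMF (49.5%) and 3 with LPS + CBD (63.2%). Beside Nlrc5, LPS + DMF was higher at 24 h in Tap1 (1.16, SE 0.162, limma adjusted p = 0.000156) and Tap2 (0.45) and lower in H2-K1 (-0.29). B2m was higher at 24 h with LPS + MMF (0.39) and LPS + CBD (0.44), and H2-D1 with LPS + CBD (0.30). The block raised the count for LPS alone to 5, adding Tap1 (0.30), Psmb9 (0.32) and H2-K1 (-0.24), beside 52.2% of all genes. For LPS + MMF it added H2-K1 (-0.23, adjusted p = 0.00955), beside 56.0% of all genes.

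Whether a drug acted differently at the 2 times was tested as an interaction. For DMF, Tap1 differed by 0.85 between 24 h and 4 h (SE 0.242, limma adjusted p = 0.0262) and Nlrc5 by 0.69 (SE 0.159, adjusted p = 0.00957), 2 of 10 members beside 16.4% of all genes (8.26% in this direction). The Nlrc5 call held when any single library was left out, while that of Tap1 was lost in 5 of 12 such fits. Under the replicate block, Tapbp (0.57, adjusted p = 0.00116) and Psmb10 (0.47, adjusted p = 0.0425) were called as well, beside 23.4% of all genes. That block also matched numbers between the times, where those of LPS + DMF did not pair (lowest r 0.027). For MMF, 0 members were called by limma, 0 had an unadjusted p under 0.05, edgeR and DESeq2 called 0, and 0.0% of all genes were called. For CBD, 0 members were called by limma, edgeR or DESeq2 beside 31.9% of all genes, with Nlrc5 at 0.43 (SE 0.163, adjusted p = 0.0599) and 1 member at an unadjusted p under 0.05. Under the replicate block, Nlrc5 (adjusted p = 0.00354) and H2-D1 (0.30, adjusted p = 0.0417) were called for CBD, beside 39.8% of all genes. Here too the numbers of LPS + CBD did not pair between the times (lowest r 0.035).

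For LPS over DMSO, Psmb9 had a larger effect at 24 h, by 0.67 (SE 0.183, limma adjusted p = 0.0337), 1 of 10 members beside 9.36% of all genes (4.98% in this direction). Between 4 h and 24 h Psmb9 fell by 0.35 on the log2 scale in the DMSO controls (adjusted p = 0.023), while its estimate was 0.03 with EtOH (95% interval -0.25 to 0.31) and 0.32 with LPS (0.02 to 0.62, adjusted p = 0.0726). The call was lost in 9 of 12 fits without a library, with adjusted p up to 0.0716. Over EtOH the same difference was 0.29 (95% interval -0.14 to 0.71, adjusted p = 0.412), and 0 of 10 members were called by limma, edgeR or DESeq2, with 0 at an unadjusted p under 0.05 and 9.05% of all genes called.

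The RNA of inducible and standard proteasome subunits was compared as the log2 ratio of reads per kilobase within each library, a description without a test. The exchange of the subunit proteins was not measured. Each ratio also moves with its standard subunit. With LPS + DMF over LPS at 4 h, the median log2 fold change of the 3 standard subunits was 0.14, with 0 called. The size of each ratio, unlike its differences between groups, depends on the gene lengths used. Psmb10 lay above Psmb7 in all 36 libraries with merged exon lengths and below it in all 36 with canonical transcript lengths, which lower this log2 ratio by 1.98, so that which of the pair was more abundant is unsettled. At 4 h the log2 values of Psmb10 over Psmb7 were 0.13, 0.35 and 0.10 with LPS + DMF and 0.90, 1.42 and 0.88 with LPS, with no overlap. Psmb8 stayed below Psmb5 throughout with either length, and its log2 ratio was -2.25 ± 0.12 with LPS + DMF and -1.75 ± 0.15 with LPS at 4 h (SD, n = 3), also without overlap. Psmb9 stayed furthest below its counterpart Psmb6 with merged exon lengths, with group means from -3.86 to -2.64, and also with canonical lengths (-3.46 to -2.23), beside -1.32 to -0.73 for Psmb8 over Psmb5 with the latter. On merged lengths the log2 ratio of Psmb9 was -3.17 ± 0.19 with DMSO and -2.64 ± 0.10 with LPS at 24 h, and -3.33 ± 0.47 with LPS + CBD at 24 h. Of the 3 standard subunits, Psmb5 rose with LPS at 24 h by 0.38 over DMSO and 0.39 over EtOH. Psmb6 rose by 0.25 over DMSO, and by 0.58 with LPS + CBD over LPS alone at 24 h.

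**Figure D4:**
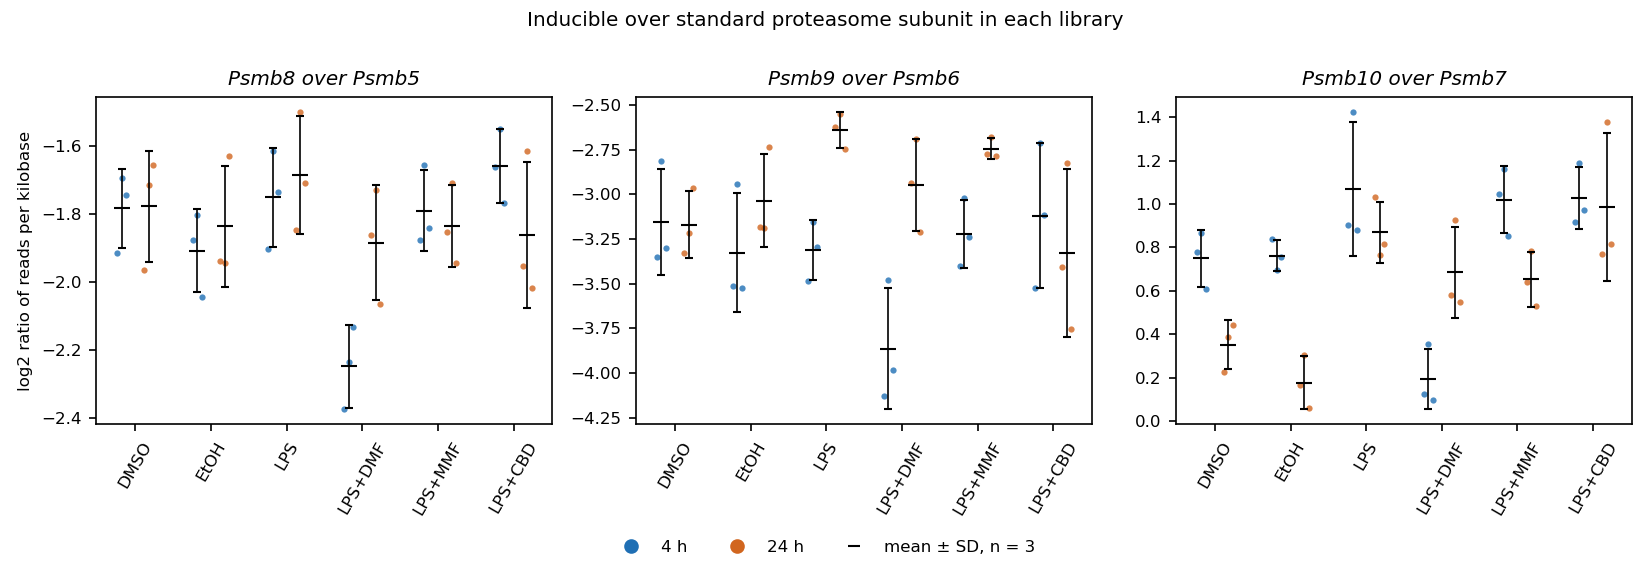
Log2 ratio of reads per kilobase of merged exons of each inducible proteasome subunit over its standard counterpart (y axes, not starting at 0 and differing between panels) in single libraries by treatment, at 4 h (blue) and 24 h (orange), with the mean ± SD of 3. In LPS + DMF at 4 h the libraries of Psmb10 over Psmb7 (0.10 to 0.35) lie below those of LPS at 4 h (0.88 to 1.42), and those of Psmb8 over Psmb5 do likewise.

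Most of the tested class I chain genes beyond the members rose with LPS at 24 h. Of 15 such genes, 9 passed the filter, and 7 of these were higher at 24 h over each vehicle (12.1% of all genes over DMSO and 10.8% over EtOH), with a median log2 fold change of 0.82 over both. H2-T24 rose from 519 to 975 normalised reads over DMSO (log2 fold change 0.93), H2-T22 by 0.95 and H2-T10 by 0.99. The transcripts of H2-T22 and H2-T10 share 15 stretches of 150 bases, so their values are less certain. At 4 h, 1 of 9 was higher over DMSO and 2 of 9 over EtOH (7.70% and 5.69% of all genes), and LPS + DMF lowered 2 of 9 against LPS (6.51% of all genes), among them H2-M2 (-1.63). H2-M2 rose with LPS from 3.68 to 44.5 normalised reads over DMSO at 4 h.

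Other genes of peptide supply and loading numbered 11, all tested. Psme2, a subunit of the proteasome activator PA28, rose with LPS at 24 h by 0.81 over each vehicle, one of 4 genes higher over DMSO and 5 over EtOH, where 12.1% and 10.8% of all genes were higher. LPS + DMF at 4 h lowered 3 of 11 against LPS (6.51% of all genes), including the tapasin relative Tapbpl (-0.85) and the aminopeptidase Lnpep (-0.35). LPS + CBD at 24 h raised 5 of 11 and lowered 2, in a comparison that called 48.7% of all genes, with Sec61a1, of the translocation channel, at 0.88, Tapbpl at 0.70 and Lnpep at -0.59. LPS + DMF at 24 h raised 1, Sec61a1 (0.62), and lowered 3, beside 25.1% of all genes called.

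Transcription factors known to act on class I genes were followed as a list of 16, all tested. LPS at 4 h raised 4 over each vehicle (7.70% of all genes over DMSO and 5.69% over EtOH), among them Stat2 (1.45 over DMSO), Nfkb1 (1.32) and Irf9 (0.99). Stat2 and Irf9 belong to the factor that carries the type I interferon signal, and Nfkb1 is a subunit of NF-κB. LPS + DMF at 4 h lowered 6 of 16 against LPS (6.51% of all genes), with Stat2 at -1.15 and Irf9 at -0.64. At 24 h, LPS raised 5 and lowered 2 over DMSO (22.7% of all genes called), and raised 5 and lowered 1 over EtOH (20.5%). LPS + CBD at 24 h raised 3 and lowered 4 against LPS, a share of the list below the 48.7% of all genes called, with Stat2 at 1.02 and Irf9 at 0.58. LPS + DMF at 24 h raised 1 and lowered 2, also below the 25.1% of all genes.

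The interferon ligands were at the edge of detection and their receptors were not. Mean Ifnb1 levels ran from 0 to 10.9 normalised reads over the 12 groups, and only the 4 receptor genes of a list of 8 passed the filter. Ifngr2, a subunit of the interferon-γ receptor, rose with LPS at 4 h by 0.62 over DMSO and 0.45 over EtOH and was lowered by LPS + DMF at 4 h (-0.57). Ifngr1, the other subunit of that receptor, went the other way with LPS at 4 h, at -0.51 over EtOH (limma adjusted p = 0.0112, called) and -0.40 over DMSO (adjusted p = 0.0504, not called). Ifnar2, of the type I receptor, rose with LPS at 24 h by 0.75 over DMSO and 0.74 over EtOH.

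Class II presentation was largely absent. H2-Ab1, which encodes a class II chain, had group means of at most 0.40 normalised reads, and 3 to 5 of the 10 genes in this list passed the filter. Cd74, the invariant chain, rose with LPS at 24 h by 0.55 over DMSO and 0.56 over EtOH.

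The cells were checked against markers of their labelled type. Of 12 microglia and macrophage markers, 11 had a median of at least 10 normalised reads and 8 of at least 100. Fcrls was either not listed under that symbol or at 0 in all libraries, which were not told apart. Of 14 markers of other cell types, 4 had a median of at least 10, among them Pecam1, Cd79a and Itgax. Aqp4 and Snap25 were likewise either not listed or at 0. The summed level of these 14 markers was 283 to 495 against 25494 to 47391 for the microglial list. Some microglial markers were called between treatments as well. LPS + DMF at 4 h lowered 4 of 11 tested against LPS (6.51% of all genes), among them Cx3cr1 (-1.93) and Spi1 (-0.79), and LPS + CBD at 24 h raised 2 and lowered 4 (48.7% of all genes called), with Cx3cr1 at -4.09 and Cd68 at 1.12. Their part in the results of the members was not tested. The share of mitochondrial reads was 1.25 to 2.32%.

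The members followed a common course only in part. Over the 12 group means, Pearson's r was 0.96 between Tap1 and Tap2 and 0.92 between Psmb8 and Psmb10, whereas it was 0.00 between Psmb10 and Nlrc5 and -0.03 between H2-K1 and Nlrc5. The correlation of single members with the mean profile of all 10 ran from 0.59 (H2-K1) to 0.90 (Tap1). That profile contains each member itself, which raises these values by construction. Among 10096 genes with a mean of at least 50 normalised reads, those outside the members most like that mean profile included Ikbke (r = 0.97), Dram1 (0.96), Fbxw17 (0.95), Cebpd (0.94), Rtp4 (0.94), Ccrl2 (0.94), Mocs1 (0.94), Oas2 (0.94) and Rnf213 (0.94). These correlations describe 12 points that share their libraries and carry no test.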

How the data were processed

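Poly(A)+ RNA of BV-2 cells was sequenced in 36 libraries. The processing notes of the submitters name GRCm39, FastQC 0.12.1, cutadapt 4.4, Trimmomatic 0.39, HISAT2 2.2.1, HTSeq 2.0.3, R 4.3.1 and DESeq2 1.40.2. The authors deposited 30 tables of 6 libraries, each a pair of groups, whose values are a normalised signal, that is read counts per gene divided by the DESeq2 size factors of that pair. The tables also hold the authors' own comparisons (fold changes, standard errors, p-values), which were not used. Whole reads were recovered from 155 of 180 columns, with 100% of 2695078 values within 0.01 read of a whole number and 0 differences among 2020699 values compared between tables. All 36 pairs of replicates differed by more than sampling noise, so every library counted once.

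Groups were compared within 1 table with limma 3.58.1 (R 4.3.3) on log2(value + 1), with a trended prior, over genes of at least 10 in at least 3 of 6 libraries, with Benjamini-Hochberg adjustment over all genes tested and a threshold of 0.05. Fold changes are on that scale and understate changes of low genes. Interactions with time used 12 libraries and the recovered reads over median-of-ratios factors. Levels used such factors over all 36 libraries, and between genes reads per kilobase of merged GENCODE vM39 exons, matched for 19850 of 19879 genes. With 3 libraries against 3, an exact permutation test of a single value could not give p below 0.1, so the fit across all genes was used. Precision rests on 239 reads or more per value, and intervals are limma's 95% intervals.

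Alternatives were TMM factors, no filter, a pseudocount of 5, edgeR 4.0.16 and DESeq2 1.42.0 on the recovered reads, all 36 libraries in 1 fit, a replicate block and leaving out each library, and canonical transcript lengths, added after the data had been seen. Same-numbered libraries were taken as paired where all 3 pairs of deviations from the group means correlated above 0.1. This held for DMF, CBD and DMSO with EtOH at 4 h, for all such pairs at 24 h and for LPS and LPS + MMF over time, with r from 0.126 to 0.746. It failed for MMF at 4 h, for DMF with MMF at 4 h and for the other treatments over time, where the lowest r was 0.008 to 0.081. The LPS groups are numbered 1 to 3 and the vehicles 4 to 6, so these could not be paired. The members, gene lists and tests were chosen with earlier results of these data known. Each list's genes were named if called in at least 1 of the 10 comparisons that set LPS against DMSO or EtOH or a drug group against LPS alone, at most 4 per list by absolute log2 fold change, plus the standard proteasome subunits. Ifnb1, H2-Ab1 and the single cell type markers given as absent or present were named after their values had been seen. Values of some single genes that these rules would name are not reported here. The fit was tested on simulated data before use.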

Additional observations from a re-analysis of the deposited data

Results flagged for a closer look

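In 3 cases the effect of a treatment was called as different between 4 h and 24 h by the interaction test across all genes (limma with Benjamini-Hochberg adjustment). The effect of DMF over LPS on Tap1 was higher at 24 h by 0.85 on the log2 scale, and that on Nlrc5 by 0.69. The effect of LPS over DMSO on Psmb9 was higher at 24 h by 0.67, while the same contrast over EtOH gave 0.29 without a call. These were 2 of 10 members for DMF, beside 16.4% of all genes, and 1 of 10 for LPS over DMSO, beside 9.36%. The call was lost in 5 of 12 fits without a library for Tap1, in 9 of 12 for Psmb9 and in 0 of 12 for Nlrc5. With all 36 libraries in 1 fit, Psmb9 was not called either. Explanations for these differences were not tested.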

How the results depend on the processing

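No called value changed direction in any of the 4210 refits of a member's log2 fold change. The call stayed as reported in 3966 of them, was lost in 150 and was gained in 94, and in 192 an uncalled estimate changed sign. Of the 205 recounts of called members with no library left out, 185 stayed within 1.5 times the reported count. With DESeq2, 4 members were called for LPS over DMSO at 4 h, 5 for LPS over EtOH at 4 h and 2 for LPS + CBD over LPS at 24 h. With no filter, 1 was called for LPS over DMSO and 1 for LPS + MMF over DMSO at 4 h, and edgeR also called 1 for the latter. With all 36 libraries in 1 fit, 3 were called for LPS over EtOH, 1 for LPS + MMF over DMSO and 3 for LPS + CBD over EtOH at 4 h, 1 for LPS + DMF over LPS and 4 for LPS + DMF over DMSO at 24 h, 1 for CBD by time and 0 for LPS over DMSO by time. No share of all genes called stands beside the counts of these refits, so they describe the refits and not the members. The cause was not tested. With library totals as the scaling, 2 of 120 levels moved by more than their SD (Tap2 in LPS + DMF and Nlrc5 in EtOH at 4 h).

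With the replicate block, 1 member was called for LPS + MMF over LPS, 2 for LPS + CBD over LPS and 3 for DMF against MMF at 24 h, and 5 for LPS over time. It called 4 for DMF by time and 2 for CBD by time, where LPS + DMF and LPS + CBD did not pair between the times. The shares of all genes called stand with these results above. Where the numbers did not pair the samples, it gave 6 for LPS + CBD over time, 6 for DMF against MMF at 4 h and 6 for LPS + DMF over time. Without the block, 63.2%, 8.34% and 58.8% of all genes were called in these comparisons, respectively. The shares with the block are not given here, so these 3 counts describe the refit only. LPS and vehicle libraries share no number, so no block was possible between them.

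Leaving out 1 library at a time, the count of called members ranged from 1 to 3 (LPS over DMSO), 1 to 2 (LPS over EtOH), 2 to 4 (DMF over LPS), 2 to 6 (DMF against MMF), 0 to 4 (LPS + DMF over DMSO), 0 to 2 (LPS + MMF over DMSO) and 1 to 6 (LPS + CBD over EtOH) at 4 h. At 24 h it ranged from 5 to 8 (LPS over DMSO), 6 to 9 (LPS over EtOH), 0 to 3 (DMF over LPS), 1 to 3 (CBD over LPS), 0 to 1 (DMF against MMF), 4 to 8 (LPS + DMF over DMSO), 7 to 10 (LPS + MMF over DMSO) and 6 to 10 (LPS + CBD over EtOH). Over time it ranged from 3 to 5 (DMSO), 3 to 4 (EtOH), 2 to 4 (LPS), 4 to 6 (LPS + DMF), 3 to 3 (LPS + MMF) and 2 to 5 (LPS + CBD), and for the interactions from 1 to 3 (DMF), 0 to 1 (CBD) and 0 to 2 (LPS over DMSO). MMF over LPS at both times, CBD over LPS at 4 h, DMSO against EtOH, MMF by time and LPS over EtOH by time gave 0 in each such fit. Reads behind a value were never fewer than 239, and counting error was not compared with the spread between libraries. The length of the canonical transcript, chosen as an alternative after the data had been seen, moved 12 of 13 levels per length by more than their SD.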
